A study of Mus musculus with 15 samples.

Results

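The effect of wound size under acellular beads was examined by RNA sequencing of healed mouse dorsal skin, as the comparison of 3 acellular 15 mm samples with 3 acellular 10 mm samples. These 6 of the 15 samples of the series were chosen by their labels alone, and the comparison was described across all genes. The mice were wild-type male balb/c animals aged 4 to 6 weeks. A round full-thickness wound was cut on the dorsal midline, removing about 15% of the dorsal skin at 10 mm and about 35% at 15 mm, and was filled with Matrigel beads that held no cells. Matrigel is a gel of basement membrane proteins. The other groups, again of 3 samples each, were 10 mm and 15 mm wounds given HDB (Matrigel beads carrying many human umbilical cord mesenchymal stem cells, set sparsely with acellular beads between them) and normal skin. The skin was taken after 4 weeks of implantation by the sequencing methods, whereas the wound experiment ended on day 21. Whether each sample came from a separate animal is not stated, so p-values measure only the spread between samples. In the main fit that spread, and so each p-value and SE, was estimated over all 15 samples, not from the 6 acellular samples alone.

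Healed skin holds several compartments that large wounds restore to different degrees. Keratinocytes re-cover the surface first. Fibroblasts and new vessels fill the dermis, while hair follicles with their sebaceous glands (which secrete lipid-rich sebum), dermal fat and the skeletal muscle sheet under the skin return late or incompletely. Immediate-early genes are transcription factors and feedback inhibitors whose transcripts appear within minutes of growth factor, mechanical or stress signals. In bulk tissue, fewer cells of a type and less RNA per cell cannot be told apart. The markers of skin were present in all 6 samples. The basal keratin Krt5 lay between 2932 and 7963 CPM (counts scaled to the size of each library), the suprabasal keratin Krt10 between 214 and 1066 CPM, and the dermal collagen gene Col1a1 between 730 and 3522 CPM in them.

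The acellular 15 mm samples were far less alike than the 10 mm samples. Between the 6 samples total counts differed little, from 16672056 to 18404188. The median gene had an SD of 0.415 on the log2 CPM scale at 15 mm and 0.200 at 10 mm, beside 0.222 and 0.208 in the HDB groups and 0.146 in normal skin, and 12057 of 15369 genes (78.5%) had the larger SD at 15 mm. The 15 mm replicate 1 stood furthest apart, with correlations of log2 CPM across genes of 0.853 to 0.928 with the other acellular samples. Samples also differed in how long and short transcripts compared. The mean deviation of transcripts in the upper quartile of length minus that in the lower quartile was -0.18, -0.19 and 0.14 (log2) in 10 mm replicates 1 to 3, and 0.19, 0.14 and 0.33 in the 15 mm replicates. Each list median is therefore followed by its range over the fits that leave out 1 acellular sample (the leave-one-out range), and for several lists the median with the length trend removed is given too.

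Across all genes, the quasi-likelihood test of edgeR, adjusted by the Benjamini-Hochberg method, called 0 of 15369 genes (0%) between the wound sizes at an adjusted p under 0.05. The lowest adjusted p was 0.0712. At an unadjusted p under 0.05 there were 1615 genes higher at 15 mm (10.5% of those tested) and 1069 lower (6.96%). DESeq2, the tool the study's methods name, called 1015 genes, 605 higher (3.94% of 15337 genes with an adjusted p) and 410 lower (2.67%), while limma voom with a separate spread for each group called 0. The lowest adjusted p was 0.715 in that voom fit and 0.551 in edgeR with only the 6 acellular samples. All 3 samples at 15 mm lay above all 3 at 10 mm for 1289 genes (8.39%) and below them for 1244 genes (8.09%). These percentages are the background for the members counted in each gene list. The count depended on 1 library. Without 15 mm replicate 3, edgeR called 526 genes, 320 higher and 206 lower, of which 336 were among those of DESeq2, whereas leaving out any other acellular sample gave 0.

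The genes with the smallest p among those whose samples did not overlap were 8 in each direction. The lower ones at 15 mm were Per1, Klf4, Cisd1, Nlrp12, AAdacl4fm3, Panx3, H2afv and Tmem97, and the higher ones included Soga1, Nek6, Col18a1, Mark1, Pxdn, Sash1 and Heg1. The adjusted p (edgeR) was 0.0712 for Per1 and 0.154 for each of the other 15, so none of these genes passed. All 16 were called by DESeq2, at adjusted p from 1.24e-09 for Per1 to 6.98e-04 for Nlrp12. Per1 (chr11:69095108-69109965 in the RefSeq annotation of GRCm38.p6), a clock gene that glucocorticoids and cyclic AMP signals also induce, was measured at 87.1, 86.3 and 67.5 CPM in the 10 mm samples and at 29.1, 34.4 and 25.96 CPM in the 15 mm samples. Its log2 fold change was -1.43 (SE 0.19), and the highest 15 mm sample was below the lowest 10 mm sample by more than the whole range of either group. In HDB wounds Per1 was at 30.3 ± 3.05 CPM (SD, n = 3) at 10 mm and 34.7 ± 4.43 at 15 mm, and in normal skin at 114 ± 29.9. The acellular 10 mm samples and normal skin were the high groups for this gene.

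**Figure D1:**
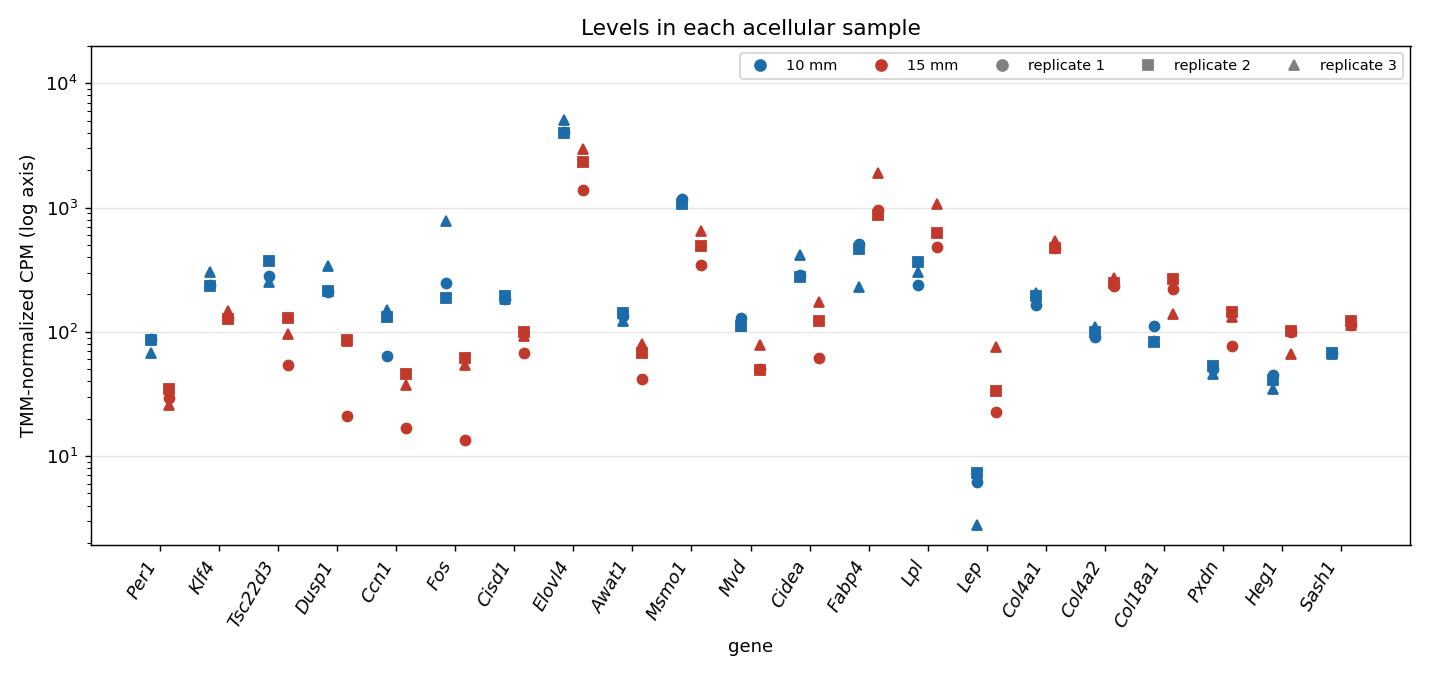
Level of 21 genes in each acellular sample, in TMM-normalized CPM on a log axis, with 10 mm samples in blue, 15 mm samples in red and a symbol for each replicate. For every gene shown the red and blue points are separate, with the red points lower for the genes from Per1 to Cidea and higher from Fabp4 to Sash1.

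Immediate-early genes stood higher in the acellular 10 mm samples than in the 15 mm samples. The list mean was 6.64 ± 0.57 log2 CPM (SD, n = 3) at 10 mm and 5.61 ± 0.28 at 15 mm, beside 5.5 ± 0.28 and 5.74 ± 0.13 in HDB 10 mm and 15 mm wounds and 5.46 ± 0.21 in normal skin, so the acellular 10 mm group was the high one. Of the 20 genes on this list, 19 had a negative log2 fold change, the median was -0.62, and 10 did not overlap between the groups, all of them below, against a background of 8.09%. DESeq2 called 9 of the 20 as lower and edgeR none. The list median was negative in each of the 20 alternative fits, with a leave-one-out range of -0.84 to -0.54. Fos (chr12:85473890-85477274), which encodes a subunit of the AP-1 transcription factor, was at 248, 186 and 775 CPM in the 10 mm samples and at 13.5, 61.4 and 53.7 in the 15 mm samples. The 10 mm replicate 3 was the highest for Fos, and without it the log2 fold change went from -3.23 (SE 0.68) to -2.34. Dusp1, a phosphatase that switches off MAP kinases (chr17:26505591-26508472), was at 208, 215 and 336 CPM at 10 mm and 21.1, 86.2 and 84.0 CPM at 15 mm, a log2 fold change of -1.99 (SE 0.42). Its 15 mm replicate 1 was the lowest by a wide margin, yet the other 15 mm samples also lay under every 10 mm sample. Klf4 (chr4:55527137-55532475), a transcription factor of the epidermal barrier, was at 240.3, 235 and 302 CPM against 130.4, 128 and 147 CPM, with little spread in either group and a log2 fold change of -0.94 (SE 0.15).

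The promoters of Per1, Fos and Dusp1 are shown because they are among the signal-responsive genes whose levels in each sample are given above. The windows are RefSeq sequences of GRCm38.p6, from 250 bases before to 50 bases after a start site, written 5′ to 3′ on the gene's strand. Capitals mark TGACGT, which is part of the cyclic AMP response element, and CACGTG, the E-box of the clock factors, each searched on both strands. In the Dusp1 window the motif TGACGT occurs on both strands at an overlapping place. Per1 has separate windows for a pair of start sites, at chr11:69098699-69098998 and chr11:69099902-69100201 (plus strand), the Fos window is chr12:85473640-85473939 (plus strand) and the Dusp1 window is chr17:26508423-26508722 (minus strand).

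Per1, upstream start: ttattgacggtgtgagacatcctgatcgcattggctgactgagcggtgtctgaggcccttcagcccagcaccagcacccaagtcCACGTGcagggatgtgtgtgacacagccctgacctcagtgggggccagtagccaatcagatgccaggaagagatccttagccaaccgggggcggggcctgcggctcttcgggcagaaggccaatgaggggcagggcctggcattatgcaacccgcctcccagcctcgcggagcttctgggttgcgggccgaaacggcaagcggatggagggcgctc
Per1, downstream start: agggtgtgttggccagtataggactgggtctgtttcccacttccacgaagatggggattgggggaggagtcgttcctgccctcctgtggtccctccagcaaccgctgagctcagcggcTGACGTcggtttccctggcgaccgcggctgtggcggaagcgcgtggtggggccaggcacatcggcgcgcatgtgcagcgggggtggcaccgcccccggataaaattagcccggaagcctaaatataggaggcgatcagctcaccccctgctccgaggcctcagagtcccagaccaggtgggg
Fos: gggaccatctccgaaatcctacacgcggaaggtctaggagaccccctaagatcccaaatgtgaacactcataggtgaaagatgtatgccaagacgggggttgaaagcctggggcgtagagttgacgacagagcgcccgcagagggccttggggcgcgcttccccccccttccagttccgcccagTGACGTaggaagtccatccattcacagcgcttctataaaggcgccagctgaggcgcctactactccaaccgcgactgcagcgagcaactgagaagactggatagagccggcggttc
Dusp1: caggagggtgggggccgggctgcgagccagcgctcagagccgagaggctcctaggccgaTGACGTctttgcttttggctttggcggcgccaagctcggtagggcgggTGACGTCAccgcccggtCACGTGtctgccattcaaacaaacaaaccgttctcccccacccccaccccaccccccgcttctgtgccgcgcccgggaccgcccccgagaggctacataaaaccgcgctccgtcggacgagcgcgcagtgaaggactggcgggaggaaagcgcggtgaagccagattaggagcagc

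The upstream Per1 window holds CACGTG and the downstream one TGACGT, Fos holds TGACGT and Dusp1 holds both motifs. Of the 20 immediate-early genes, 15 matched the promoter table by symbol, and 7 of their 19 windows (5 genes, some windows overlapping) held TGACGT, beside 7.51% of all 32851 windows. For CACGTG the counts were 4 of 19 and 7.15%. A match describes the letters only.

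Ccn1 and Ccn2 encode matricellular proteins whose transcripts follow mechanical signals through YAP and serum response factor. They were the only members below without overlap on a list of 27 matrix glycoproteins and proteoglycans, of which 22 were higher and the median was 0.57 (leave-one-out range -0.11 to 0.76). Ccn1 was at 64.0, 132 and 149 CPM at 10 mm and 16.7, 45.4 and 37.4 at 15 mm (log2 fold change -1.79, SE 0.40). For Ccn2 the levels were 112, 171 and 115 CPM against 25.2, 57.9 and 68.2 CPM (-1.39, SE 0.42), and neither gene's groups overlapped. Tsc22d3 (chrX:140539528-140600522), a mediator of glucocorticoid action in leukocytes and skin, was at 279.8, 369 and 253 CPM at 10 mm and 54.0, 129 and 96.9 at 15 mm, a log2 fold change of -1.69 (SE 0.33). On a list of 15 glucocorticoid-responsive genes 12 were lower and 3 higher, the median was -0.55 (leave-one-out range -0.80 to -0.27, the highest without 15 mm replicate 3), 5 members did not overlap and were lower (Tsc22d3, Per1, Dusp1, Klf9 and Errfi1), and 0 were higher without overlap. This list was made after the values were seen and shares Per1 with the clock list and Dusp1 with the immediate-early list. Of 15 clock genes 13 were lower and 2 higher. The median of -0.58 had a leave-one-out range of -0.90 to 0.07, the highest without 10 mm replicate 1, and besides Per1 only Ciart had groups that did not overlap (-1.08, SE 0.37).

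Sebaceous gland genes were lower at 15 mm. Of 16 genes tested, 14 had a negative fold change, with a median of -0.88, and 11 did not overlap between the groups, none of them above. DESeq2 called 6 as lower and edgeR none. Elovl4, an elongase that makes very long fatty acids, was at 4091, 4014 and 5086 CPM in the 10 mm samples and 1389.7, 2325 and 2979 CPM in the 15 mm samples (log2 fold change -0.98, SE 0.31). Awat1, which esterifies wax alcohols of sebum, was at 134, 143 and 122 CPM against 42.0, 67.5 and 79.3 CPM (-1.08, SE 0.31). Far2, a fatty acyl-CoA reductase, and Elovl3, a further elongase, differed by -0.997 (SE 0.30) and -1.01 (SE 0.30). The melanocortin receptor Mc5r, which regulates sebum output, was at 148, 94.9 and 235 CPM at 10 mm and 46.4, 83.3 and 76.5 CPM at 15 mm. Scd3, the desaturase of sebocytes, was at 1269, 1486 and 1696 CPM against 252, 818 and 1110.1 CPM, whereas the groups overlapped for Scd1, a desaturase that fat cells also use (-0.41, SE 0.42). The value of Scd1 was -0.15 without 15 mm replicate 1 and -0.74 without 15 mm replicate 3. The 15 mm replicate 1 had the lowest level of Elovl4, Awat1, Mc5r and Scd3, and the leave-one-out range of the list median was -1.03 to -0.61, the highest without it. In normal skin Elovl4 was at 1997 ± 441 CPM and Awat1 at 59.2 ± 18.8 CPM. The list mean was 8.47 ± 0.07 log2 CPM (SD, n = 3) at 10 mm, 7.73 ± 0.55 at 15 mm and 7.88 ± 0.27 in normal skin. In HDB wounds it was 8.54 ± 0.37 at 10 mm and 7.97 ± 0.18 at 15 mm. Normal skin thus lay nearer the 15 mm level, and the 10 mm groups were the high ones.

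Cholesterol synthesis genes were lower with hardly an exception. This list was made after the values were seen, so its counts describe and do not test. Of 20 genes tested, 18 were lower, with a median log2 fold change of -0.78, and 18 were below without overlap. Sc5d, a sterol desaturase, was above without overlap (0.49, SE 0.22). The members named here lay at early and late steps of the pathway. Hmgcs1, which acts before mevalonate is made, differed by -0.73 (SE 0.20). Mvd, which decarboxylates mevalonate diphosphate, was at 129, 112 and 111 CPM at 10 mm and 49.99, 49.3 and 78.3 CPM at 15 mm. Fdft1, the squalene synthase, was at 248, 202 and 214 CPM against 119, 120.4 and 143 CPM. Msmo1 (chr8:64718123-64733578), a sterol demethylase, was at 1178, 1061 and 1123 CPM against 347, 491 and 646 CPM, a log2 fold change of -1.18 (SE 0.27). Tmem97, the sigma-2 receptor, a sterol-regulated gene outside the list, was at 96.7, 90.9 and 72.0 CPM at 10 mm and 39.6, 33.7 and 46.0 CPM at 15 mm (-1.12, SE 0.22). The leave-one-out range of the list median was -0.86 to -0.71. The list mean was 7.68 ± 0.07 log2 CPM (SD, n = 3) at 10 mm, 6.94 ± 0.19 at 15 mm and 6.91 ± 0.18 in normal skin. In HDB wounds it was 7.67 ± 0.41 at 10 mm and 6.96 ± 0.05 at 15 mm. The 15 mm groups were thus near normal skin, and the 10 mm groups were the high ones. Sebocytes are rich in these transcripts, and the sebaceous list mean was 8.44, 8.43 and 8.55 log2 CPM in the 10 mm samples and 7.17, 7.74 and 8.27 in the 15 mm samples. Its part in the cholesterol result was not tested.

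The promoters of Hmgcs1 and Msmo1 are shown as examples from the start and the later steps of the pathway. Capitals mark CCAAT, the box that NF-Y binds beside sterol-responsive factors, and, in Hmgcs1, TCACNCCAC, a pattern of the sterol regulatory element, both searched on either strand in the RefSeq windows chr13:119690101-119690400 (plus strand) and chr8:64733529-64733828 (minus strand) of GRCm38.p6.

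Hmgcs1: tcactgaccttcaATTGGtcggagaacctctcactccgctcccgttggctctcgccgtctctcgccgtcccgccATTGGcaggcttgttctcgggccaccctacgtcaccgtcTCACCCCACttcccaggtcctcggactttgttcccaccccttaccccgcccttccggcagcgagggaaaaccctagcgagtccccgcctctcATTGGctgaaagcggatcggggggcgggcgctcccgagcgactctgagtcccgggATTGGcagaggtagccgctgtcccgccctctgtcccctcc
Msmo1: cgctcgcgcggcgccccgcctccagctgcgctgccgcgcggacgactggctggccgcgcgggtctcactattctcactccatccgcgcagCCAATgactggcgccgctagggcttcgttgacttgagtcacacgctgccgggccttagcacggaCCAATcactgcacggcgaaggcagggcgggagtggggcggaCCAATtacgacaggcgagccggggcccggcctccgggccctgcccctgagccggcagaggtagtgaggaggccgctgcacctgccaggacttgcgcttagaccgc

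Hmgcs1 holds 4 CCAAT boxes and the sterol element, and Msmo1 holds 3 CCAAT boxes. All 14 list members found in the promoter table held CCAAT in at least 1 window (14 of 17 windows), beside 37.4% of all windows. TCACNCCAC was found in 1 of 17 windows and in 1.24% of all windows. These counts were made after the values were seen.

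Adipocyte genes were higher at 15 mm. Of 16 members 14 had a positive log2 fold change, the median was 1.68, and 10 did not overlap and were above, against a background of 8.39%. DESeq2 called 7 as higher and edgeR none. Lep, the hormone leptin, was at 6.17, 7.24 and 2.81 CPM at 10 mm and 22.6, 33.7 and 75.5 CPM at 15 mm (log2 fold change 3.02, SE 0.81). Fabp4, the fatty acid carrier of fat cells, was at 510.1, 468 and 231 CPM against 956, 870.1 and 1887 CPM (1.62, SE 0.51). Lpl, the lipase that takes up fat from lipoproteins, differed by 1.27 (SE 0.43). Adipoq, the hormone adiponectin, was at 60.8, 70.8 and 31.3 CPM at 10 mm and 119, 179 and 502 CPM at 15 mm, and Plin1, the coat of the fat droplet, differed by 2.95 (SE 0.89), and by 1.80 without 15 mm replicate 3. That sample was highest for each of these genes, and the other 15 mm samples also exceeded every 10 mm sample. The leave-one-out range of the list median was 1.03 to 2.04, the lowest without that replicate. Cidea went the other way, at 285, 277 and 417 CPM at 10 mm and 61.4, 123 and 173 CPM at 15 mm (-1.46, SE 0.36). Cidea encodes a fat droplet protein found in brown fat and also in sebaceous glands. Normal skin held 86.0 ± 64.3 CPM of Lep and 418 ± 253 CPM of Adipoq.

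Basement membrane genes stood higher at 15 mm, with 1 exception among those that separated the groups. This list, too, was made after the values were seen, and 9 of its 24 members did not overlap and were higher at 15 mm while 1 was lower. The median was 0.61 (leave-one-out range 0.35 to 0.72, the lowest without 15 mm replicate 3). Col4a1 and Col4a2, which encode the chains of the common type IV collagen, had the largest fold changes of the list. Col4a1 (chr8:11198423-11312889) was at 163, 193 and 205 CPM at 10 mm and 473, 468 and 537 CPM at 15 mm (log2 fold change 1.40, SE 0.37). Col4a2 (chr8:11312805-11449287) was at 90.2, 99.0 and 109 CPM against 232, 248 and 269 CPM (1.33, SE 0.34). In both genes the lowest 15 mm sample was more than the whole range of the 10 mm samples above the highest of them. The pair starts head to head. The RefSeq windows of the start sites, chr8:11312777-11313076 for Col4a1 (minus strand) and chr8:11312555-11312854 for Col4a2 (plus strand), share 78 bases, which are in capitals in the Col4a1 window.

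Col4a1: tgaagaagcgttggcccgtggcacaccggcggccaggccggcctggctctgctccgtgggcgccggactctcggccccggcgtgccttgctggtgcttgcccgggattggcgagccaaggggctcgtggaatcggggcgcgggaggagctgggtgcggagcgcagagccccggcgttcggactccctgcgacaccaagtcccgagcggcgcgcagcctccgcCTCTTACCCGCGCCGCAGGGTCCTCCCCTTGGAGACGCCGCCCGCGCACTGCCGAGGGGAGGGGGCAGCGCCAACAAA

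Pxdn, the peroxidase that crosslinks type IV collagen, was at 49.8, 53.1 and 45.6 CPM at 10 mm and 77.3, 144 and 132 CPM at 15 mm (log2 fold change 1.25, SE 0.24). Col18a1 (chr10:77052178-77166530), the collagen of vessel and epithelial basement membranes from which endostatin is cut, was at 112, 83.0 and 83.9 CPM against 222, 267 and 139 CPM (1.17, SE 0.22). Lamb1, a laminin chain, and Hspg2, the proteoglycan perlecan, differed by 1.05 (SE 0.23) and 0.92 (SE 0.30). With the transcript length trend removed the list median was 0.34, and Col4a1, Pxdn and Hspg2 were at 1.21, 1.04 and 0.58.

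The fibrillar collagen genes Col1a1 and Col3a1 did not share this pattern. Col1a1 was at 766, 1125 and 794 CPM at 10 mm and 773, 729.9 and 3522 CPM at 15 mm, and Col3a1 at 1155, 1858 and 1288 CPM against 1201, 1477 and 5383 CPM. The positive fold changes of 0.90 (SE 0.61) and 0.91 (SE 0.56) came from 15 mm replicate 3 alone, and without it they were -0.25 and -0.10. On the whole collagen list 19 of 23 genes were higher. Without overlap there were 5, all above. These were Col4a1, Col4a2, Col18a1, Col15a1 and Col14a1, of which Col14a1 alone lies outside the basement membrane list. The median of 0.69 had a leave-one-out range of 0.03 to 0.99, the lowest without that replicate.

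Endothelial genes were higher in level. All 22 members had a positive log2 fold change, with a median of 0.63 (leave-one-out range 0.34 to 0.94, the lowest without 15 mm replicate 3), and 6 did not overlap, against a background of 8.39%. Neither edgeR nor DESeq2 called any of them, and 2 of 22 had an unadjusted p under 0.05, a share no higher than the 10.5% of all genes. These were Ptprb, a vascular phosphatase (19.5, 27.2 and 18.1 CPM against 35.1, 41.1 and 57.9 CPM), and Aplnr, the apelin receptor of sprouting vessels (9.02, 9.55 and 5.96 CPM against 13.6, 16.05 and 19.1 CPM). Pecam1, the endothelial adhesion molecule CD31, overlapped at 40.2, 70.8 and 30.2 CPM and 51.1, 55.8 and 101 CPM. Heg1, an endothelial and epithelial receptor that is not on the list, was at 45.0, 41.3 and 34.4 CPM at 10 mm and 101, 101 and 66.9 CPM at 15 mm (1.15, SE 0.22). Of 16 myofibroblast and pericyte genes, with a median of 0.29 (leave-one-out range -0.03 to 0.46, the lowest without 15 mm replicate 3), 2 were above without overlap, beside 8.39% of all genes. These were the receptor Notch3 and the actin-binding Cald1, with log2 fold changes of 0.54 (SE 0.14) and 0.72 (SE 0.19). Notch3 was at 0.30 with the length trend removed.

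The other leading genes included kinases and a signalling scaffold. Sash1, the scaffold, was at 67.3, 67.7 and 66.2 CPM at 10 mm against 114, 121 and 113 CPM at 15 mm, with almost no spread at 10 mm. Mark1, a kinase of microtubule-associated proteins, and Nek6, a mitotic kinase, differed by 0.75 (SE 0.14) and 1.06 (SE 0.20). Soga1 differed by 1.01 (SE 0.19). Among the lower genes, Cisd1, an iron-sulfur protein of the outer mitochondrial membrane, was at 183, 195 and 185 CPM against 67.1, 100.0 and 93.1 CPM. Panx3, a channel protein, was at 58.6, 59.4 and 66.8 CPM against 25.4, 22.2 and 36.1 CPM, and AAdacl4fm3 at 126, 129 and 131 CPM against 37.8, 49.5 and 70.3 CPM. H2afv, a histone variant, differed by -0.54 (SE 0.10), the smallest change of the 16 genes. Nlrp12, an innate immune receptor, was near the limit of detection, at 1.37, 2.19 and 1.87 CPM and 0.340, 0.233 and 0.372 CPM.

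**Figure D2:**
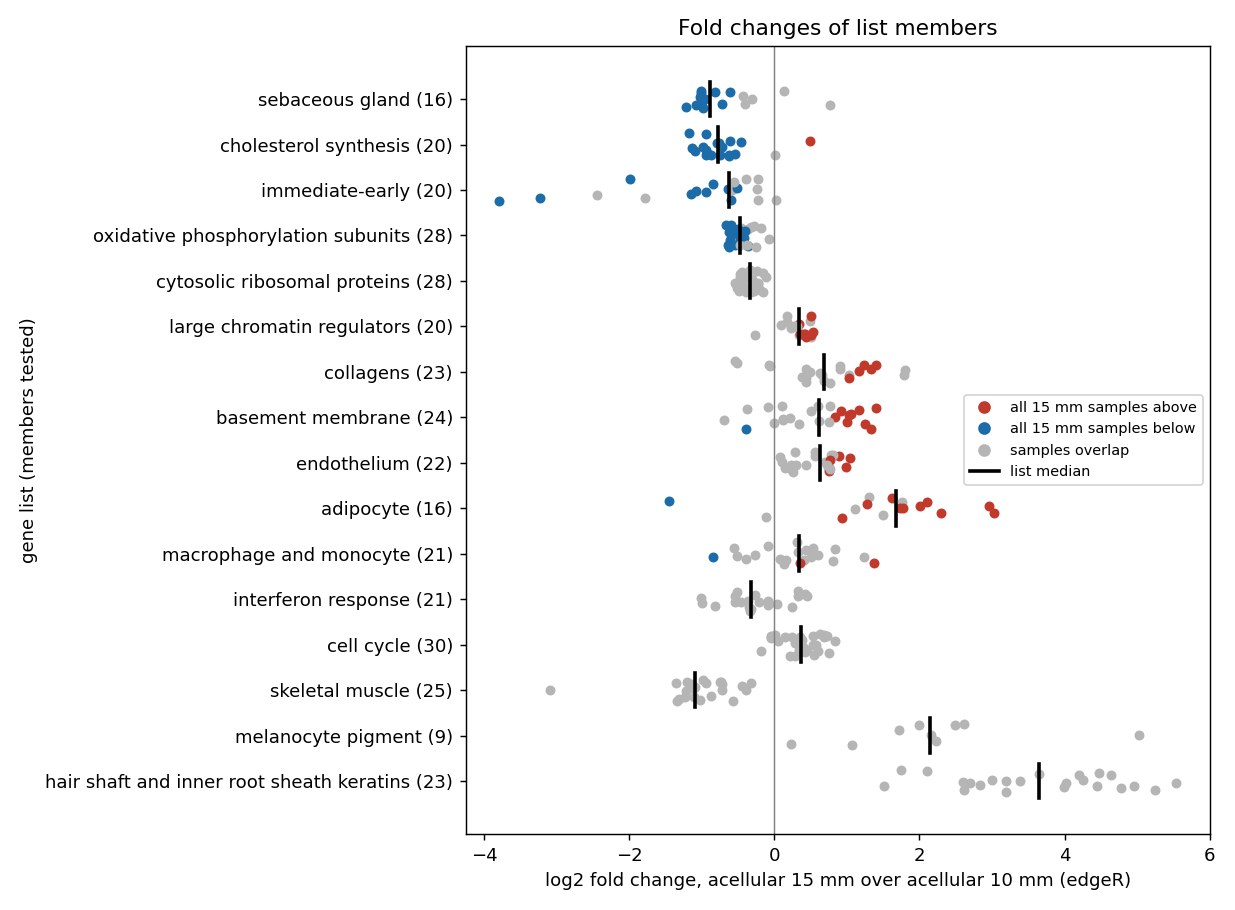
Log2 fold change of acellular 15 mm over 10 mm (edgeR) for each tested member of 16 gene lists, with the number of members in brackets and the list median as a black bar. Red points are genes whose 15 mm samples all lie above the 10 mm samples, blue points those all below, and grey points overlap. The sebaceous, cholesterol and oxidative phosphorylation lists are mostly blue and left of 0, the adipocyte list is mostly red, and the hair, pigment, muscle and cell cycle lists are grey throughout.

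Mitochondrial and chromatin genes differed by small amounts. All 28 tested subunits of oxidative phosphorylation, the respiratory chain that makes ATP, had a negative fold change, with a median of -0.47 (leave-one-out range -0.57 to -0.27, the highest without 15 mm replicate 3), and 19 did not overlap. DESeq2 called 9 of them and edgeR none. The list mean was 7.41, 7.64 and 7.60 log2 CPM in the 10 mm samples and 7.26, 7.27 and 6.69 in the 15 mm samples. The skeletal muscle list mean, in the same order, was 7.40, 8.76 and 9.84 and 6.59, 9.31 and 4.74. The part of muscle in this result was not tested. Cox4i1, a subunit of cytochrome oxidase, was at 459, 506 and 436 CPM at 10 mm and 336, 359.5 and 303 CPM at 15 mm (-0.49, SE 0.13). Ndufa1 and Ndufa2, subunits of complex I, differed by -0.61 (SE 0.14) and -0.63 (SE 0.15). Cytosolic ribosomal proteins had a median of -0.34 (leave-one-out range -0.59 to -0.20) with all 28 members overlapping. Of 20 large chromatin regulators, 19 were higher, with a median of 0.35 (leave-one-out range 0.26 to 0.44), and 9 did not overlap. Trrap, a scaffold of histone acetyltransferase complexes, was at 83.9, 84.5 and 86.5 CPM against 115, 109.5 and 108 CPM, and the histone methyltransferase Nsd1 at 154, 139 and 174 CPM against 233, 189 and 199 CPM. The chromatin remodeller Arid1a differed by 0.50 (SE 0.14), and by 0.31 without 15 mm replicate 1.

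Transcript length moved with these lists. Genes with an unadjusted p under 0.05 that were higher at 15 mm had a median longest transcript of 5066 bases and those lower of 2290 bases, beside 3282 for the others. With each sample's length trend removed, the chromatin median went from 0.35 to 0.08 while Trrap went from 0.39 to 0.06, Nsd1 from 0.41 to 0.09 and Arid1a from 0.50 to 0.27. The oxidative phosphorylation and ribosomal medians were then -0.38 and -0.23. By contrast the immediate-early, sebaceous, cholesterol and adipocyte medians were -0.56, -0.79, -0.82 and 1.65 in that fit.

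Hair follicle genes varied widely between samples of 1 group. The mean of the hair shaft and inner root sheath keratins was 5.47, -0.91 and 3.18 log2 CPM in 10 mm replicates 1 to 3 and 9.11, 6.13 and 0.29 in the 15 mm replicates, so each group held samples with and without strong hair keratin expression. All 23 tested members of this list, which are keratins and Tchh, had a positive fold change, with a median of 3.64. None of them separated the groups. DESeq2 called 2 as higher and edgeR none, with 12 at an unadjusted p under 0.05. The leave-one-out range of the median was 0.83 to 5.77, the lowest without 15 mm replicate 1. Krt83, a keratin of the hair shaft, was at 94.6, 0.562 and 15.2 CPM at 10 mm and 2804, 228 and 1.54 CPM at 15 mm. Krt71 and Tchh, both of the inner root sheath, were at 169, 1.01 and 83.2 CPM against 2963, 203 and 3.88 CPM and at 510.0, 9.55 and 59.3 CPM against 5034, 256 and 10.8 CPM. The keratin-associated proteins, which fill the shaft, had a median of 3.81 (leave-one-out range 1.33 to 7.71, the lowest without 15 mm replicate 1 and the highest without 10 mm replicate 1) with 31 of 31 members overlapping and 3 called higher by DESeq2. Foxn1, a transcription factor of the hair matrix, was at 15.6, 6.06 and 8.89 CPM and 149.8, 30.5 and 5.58 CPM, highest in the samples with most hair keratin. In HDB wounds the median of the hair keratin list was 4.00 and 21 of 23 members were above at 15 mm without overlap, against 11% of all genes there.

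Some other follicle genes separated the acellular groups. Of 14 follicle stem and outer root sheath genes 6 were higher and 8 lower, with a median of -0.04 (leave-one-out range -0.38 to 0.17). Of these, 3 were below without overlap (Fgf18, Krt15 and Foxc1) and 0 above, beside 8.09% of all genes below. Of 17 hair matrix regulators 13 were higher and 4 lower, with a median of 1.17 (leave-one-out range -0.01 to 1.76), and only Wnt10a was below without overlap. Fgf18, a growth factor of the resting follicle, was at 7.93, 6.96 and 11.4 CPM at 10 mm and 0.567, 2.39 and 3.88 CPM at 15 mm (-1.94, SE 0.48). Krt15, a keratin of bulge stem cells and basal epidermis, was at 4227, 3095 and 2940.0 CPM against 767, 2437 and 2347 CPM, and its log2 fold change of -0.89 (SE 0.42) was -0.52 without 15 mm replicate 1. Wnt10a, a ligand of follicle and epidermal renewal, differed by -0.77 (SE 0.24). In the epidermis itself, Sbsn, a protein of the differentiating layers, was separate at 994, 689.8 and 702 CPM and 274, 587 and 638 CPM, while 2 of 23 differentiation genes (Sbsn and Hrnr) did not overlap and the list median was -0.27 (leave-one-out range -0.74 to -0.13).

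Pigment and cell cycle genes were high in 15 mm replicate 1 alone. The mean of 9 melanocyte genes was 4.12, 3.28 and 4.40 log2 CPM at 10 mm and 7.54, 2.52 and 3.33 at 15 mm, and the median fold change of 2.15 had a leave-one-out range of -0.92 to 2.71, the lowest without that replicate. Pmel, which forms the fibrils of the melanosome, was at 49.1, 33.6 and 50.9 CPM against 557, 9.92 and 28.0 CPM. Mki67, the proliferation marker Ki-67, was at 135, 161 and 280.0 CPM against 698, 121 and 137 CPM, and the median of 30 cell cycle genes was 0.37 (leave-one-out range -0.66 to 0.73, the lowest without it). In each of these lists 0 members separated the groups.

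Skeletal muscle genes varied among samples of both groups. The list mean was 7.40, 8.76 and 9.84 log2 CPM at 10 mm and 6.59, 9.31 and 4.74 at 15 mm, and all 25 members overlapped. The median fold change was -1.09 (leave-one-out range -3.12 to -0.32). Acta1, the actin of skeletal muscle, was at 1279, 3346 and 6876 CPM against 749, 4518 and 136 CPM. With the muscle list mean as a covariate edgeR called 152 genes between the wound sizes, 57 higher and 95 lower, of which 130 were among those of DESeq2.

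**Figure D3:**
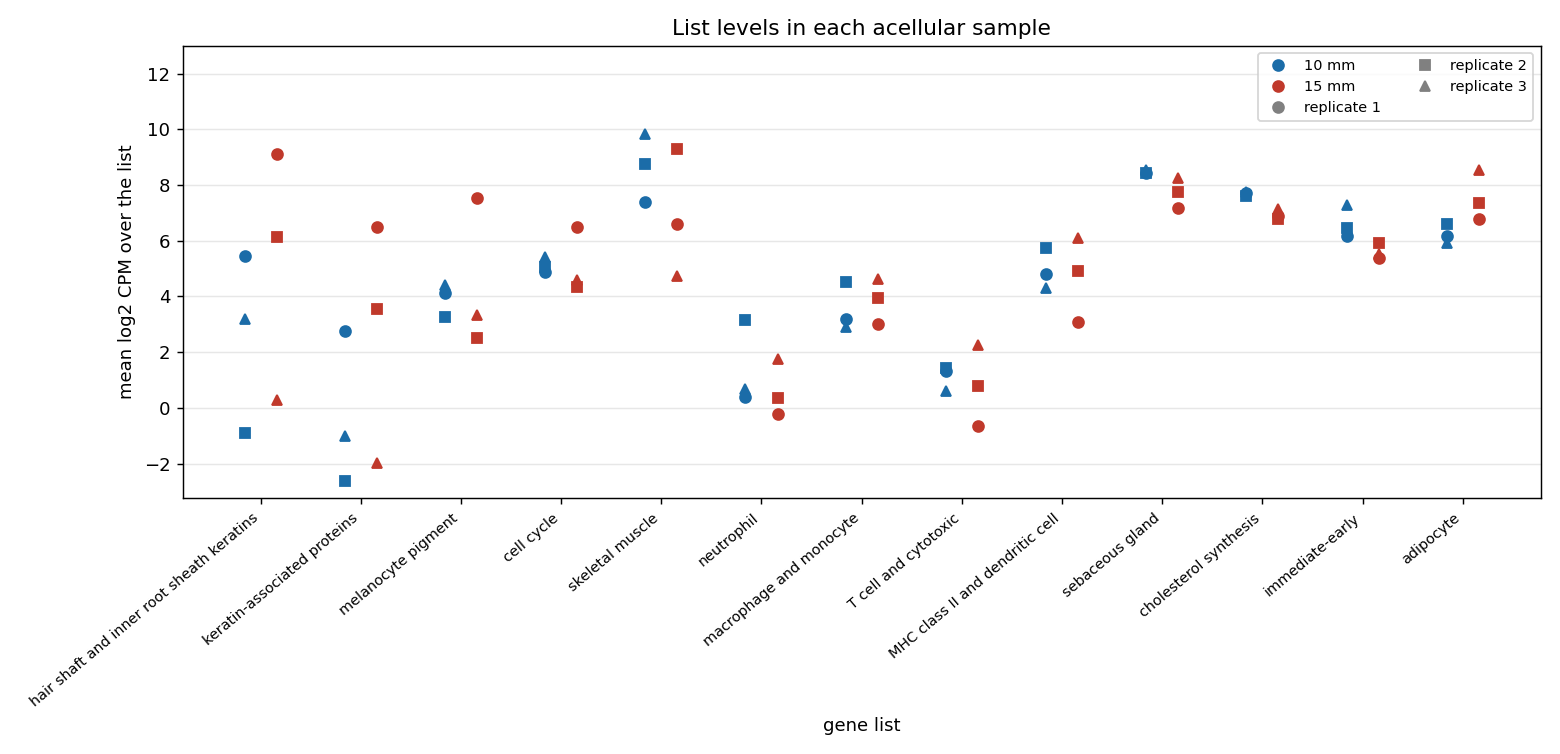
Mean log2 CPM of 13 gene lists in each acellular sample, with 10 mm samples in blue, 15 mm samples in red and a symbol for each replicate. The 15 mm replicate 1 (red circle) is highest of all for the hair, pigment and cell cycle lists and the lowest 15 mm sample for the sebaceous and immune lists, and the cholesterol, immediate-early, sebaceous and adipocyte lists have no overlap of colours.

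Immune lists did not separate the wound sizes. The macrophage and monocyte list had a median of 0.33 (leave-one-out range -0.26 to 1.09, the lowest without 15 mm replicate 3 and the highest without 10 mm replicate 2) with 2 members above and 1 below without overlap. Those above were the scavenger receptor Cd163, at 7.48, 4.04 and 5.38 CPM and 9.86, 14.1 and 20.0 CPM, and the receptor kinase Mertk (0.36, SE 0.17). Neutrophil genes were highest in 10 mm replicate 2, with a list mean of 0.39, 3.17 and 0.67 log2 CPM at 10 mm and -0.23, 0.35 and 1.77 at 15 mm, and the median fold change was -1.19 (leave-one-out range -2.17 to 0.90, the highest without that sample). T cell, MHC class II and interferon response lists had medians of 0.10, 0.06 and -0.32 with every member overlapping (leave-one-out ranges -0.95 to 0.57, -0.89 to 0.52 and -0.82 to -0.08), and at 15 mm all these lists were lowest in replicate 1 and highest in replicate 3. Cd68, a macrophage marker, was at 8.90, 42.2 and 7.48 CPM against 6.80, 27.6 and 31.4 CPM, and Cd3e, a chain of the T cell receptor complex, at 4.00, 2.75 and 2.57 CPM against 0.510, 1.52 and 6.0001 CPM. The adhesion molecule Vcam1, the chemokines Ccl5, Cxcl9 and Cxcl10 and the cytokine subunit Il12b, which the study followed as secreted factors, had log2 fold changes of 0.04 (SE 0.42), -0.32 (SE 0.71), -0.54 (SE 0.65), -0.52 (SE 0.58) and -0.16 (SE 0.72), and the groups overlapped for each. Cxcl9 and Cxcl10 were at -1.42 and -1.06 without 15 mm replicate 3, and both at -0.08 without 15 mm replicate 1.

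The same size contrast in HDB wounds shares no sample with the acellular one. EdgeR called 0 genes there (1896 at an unadjusted p under 0.05, with 568 called by DESeq2 and 1 by limma voom), and 0 for the difference between the contrasts (2063 at an unadjusted p under 0.05, with 852 by DESeq2 and 0 by limma voom). Without overlap in both contrasts, 377 genes pointed the same way and 327 opposite ways. The lipid lists had the same sign in both. In HDB wounds 11.8% of all genes were below at 15 mm without overlap and 11% above. The cholesterol median there was -0.72, with 15 of 20 members below without overlap. For sebaceous genes the median was -0.58 with 7 of 16 below, and for adipocyte genes it was 0.98 with 0 of 16 above. Msmo1 differed by -0.94 and Elovl4 by -0.94 there. For these 3 lists no member had an unadjusted interaction p under 0.05.

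Immediate-early, mitochondrial and chromatin genes had opposite signs in the HDB wounds. The immediate-early median was 0.28 there, and 15 of 20 members had an unadjusted interaction p under 0.05, against 13.4% of all genes. Fos differed by 1.17 in HDB and its interaction was -4.40 (adjusted p 0.118, edgeR). The interaction of Per1 was -1.62, at the same adjusted p of 0.118, the lowest of any gene. The oxidative phosphorylation median was 0.30 with 20 of 28 members under that p, and the chromatin median -0.39 with 18 of 20. The transcript length difference followed the same order, at -0.30, -0.14 and -0.38 in the HDB 15 mm samples and 0.23, -0.10 and 0.17 in the HDB 10 mm samples. Its part in the HDB medians was not tested. The smallest interaction p-values also included Lyst, a regulator of lysosome size (0.48 in acellular, -0.81 in HDB), Cnih1, a cargo receptor of secretion (-0.31 and 0.42), and Nenf, a secreted neurotrophic factor (-0.39 and 0.78). With the length trend removed the acellular values of Lyst, Cnih1 and Nenf were 0.16, -0.18 and -0.24.

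**Figure D4:**
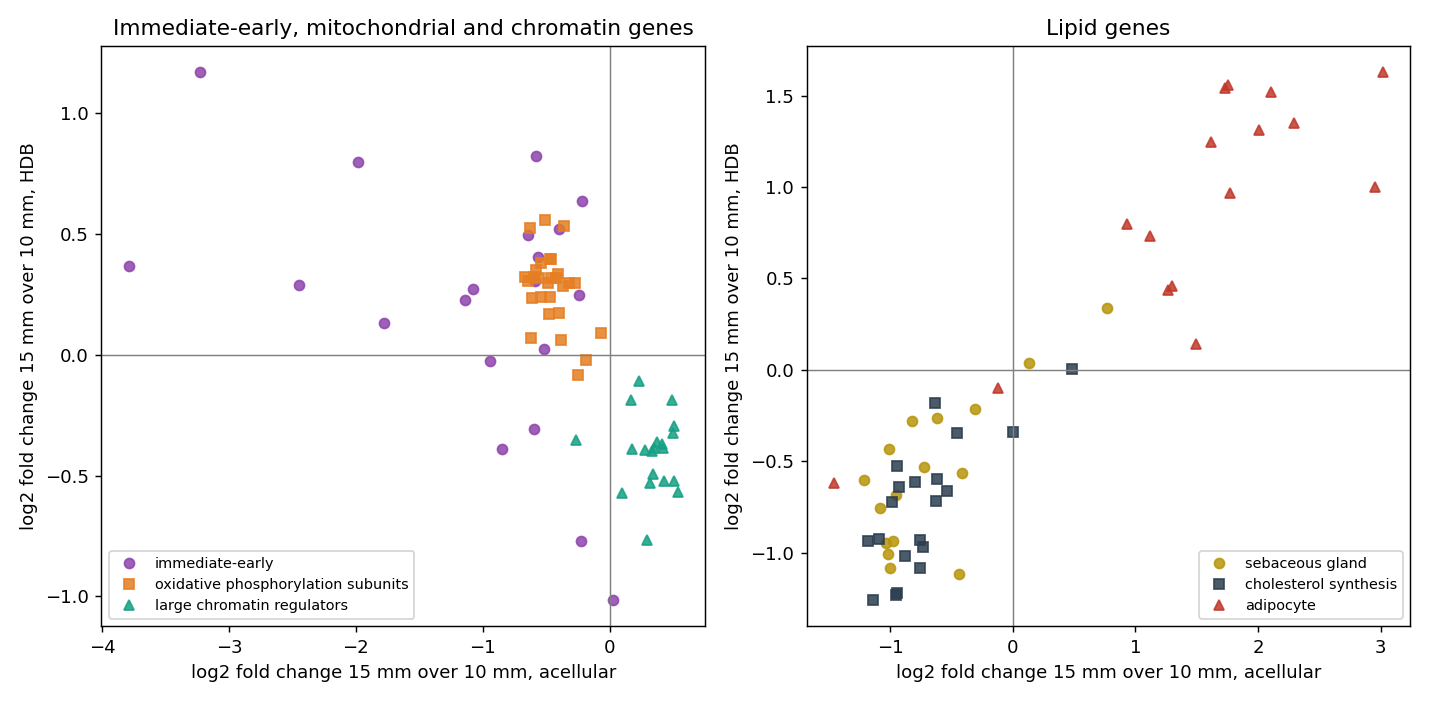
Log2 fold change of 15 mm over 10 mm in HDB wounds (vertical axis) against that in acellular wounds (horizontal axis) for members of 6 gene lists, from the same edgeR fit. On the left most oxidative phosphorylation subunits lie at upper left and chromatin regulators at lower right, while on the right the sebaceous and cholesterol genes lie mostly at lower left and the adipocyte genes mostly at upper right.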

How the data were processed

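The authors deposited a table of expected counts for 18929 genes in 15 samples, not normalized. The submitters' processing notes name HISAT2 2.0.4, Bowtie2 2.2.5, RSEM 1.2.12 and the build GRCm38.p6, with no order or role. Expected counts were rounded. In R 4.3.3, edgeR 4.0.16 was run with TMM normalization, filterByExpr (15369 genes kept) and a single quasi-likelihood fit of the 5 group means, with Benjamini-Hochberg adjustment over all genes at 0.05. Levels are TMM-normalized CPM, with a prior count of 2 for log2 CPM. Standard errors were computed as the fold change over the square root of F. An exact permutation test of 3 against 3 samples cannot go below 0.1 and was not used. Alternatives were DESeq2 1.42.0, limma 3.58.1 (voom), other filters and normalization, fewer groups, the replicate block, covariates, removal of each sample's trend with GENCODE M21 transcript length (98.2% of genes) and leaving out each acellular sample. A fit to genes with a known length, without correction, was added after seeing the data. The comparison was tested on simulated data with the same spread in every group, which these samples do not have.

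The members, the 42 gene lists and the rule for named genes were chosen with earlier results of these data known, and 3 lists (cholesterol synthesis, basement membrane, glucocorticoid-responsive) after the values were seen. The rule named 8 genes per direction with the smallest p among non-overlapping genes of at least 1 CPM, the 3 highest and 2 smallest-p members of each list, genes the study stained or named, and the 5 smallest interaction p-values. Dusp1, Fosb, Atf3, Nr4a1, Far2, Elovl3, Adipoq, Plin1, Lamb1, Sc5d, Klf9, Errfi1, Col14a1, Col15a1, Hrnr, Mertk, Bmp3, Lyve1, Per2 and Dbp were named outside it after their values were seen. Some genes that the rule names are not reported here. Antisense and overlapping genes could not be told apart, since the strand setting is not given in the sources used here.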

Additional observations from a re-analysis of the deposited data

Results flagged for a closer look

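The groups hold 3 samples each, so no sample was tested as an outlier. Of the genes named in the text, 10 had wound-size contrasts in acellular and HDB skin that did not overlap and pointed opposite ways. The interaction (acellular contrast minus HDB contrast, log2) was negative for Dusp1 (-2.78), Ndufa2 (-1.15), Ndufa1 (-0.85), Cox4i1 (-0.785) and Cnih1 (-0.725), and positive for Lyst (1.29), Arid1a (0.799), Nsd1 (0.779), Trrap (0.665) and Notch2 (0.652), which had log2 fold changes of 0.42 in acellular and -0.23 in HDB wounds. None passed the edgeR interaction test, where the lowest adjusted p of any gene was 0.118 and 2063 genes had an unadjusted p under 0.05. The choice of these genes by their opposite contrasts fixes the sign, so it is a description.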

How the results depend on the processing

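The 0 genes called between the acellular wound sizes by edgeR became 1015 with DESeq2, 152 with a covariate for skeletal muscle, and 1 (Per1) with upper-quartile normalization, with only the 12 wound samples or with the transcript length trend removed. Without single acellular samples the count was 0 to 526, the highest without 15 mm replicate 3. For HDB wounds 0 became 568 with DESeq2, 1 with limma voom and 0 to 1 without single acellular samples (1 without acellular 15 mm replicate 3), and for the interaction 852 with DESeq2, 3 with the hair keratin list as a covariate and 0 to 1 (1 without acellular 15 mm replicate 2). All other fits gave 0, including a minimum absolute log2 fold change of 1. Why DESeq2 and edgeR differ was not tested. Whether same-numbered samples are paired is not stated in the sources used here. The deviations of same-numbered acellular samples had correlations of 0.395, -0.0052 and -0.321. With 3 samples a group, centred on their mean, these cannot decide it. The replicate block called 0.

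Over the named genes and fits, 35 log2 fold changes reversed. With the hair keratin list as a covariate Krt71 was -0.66, Tchh -0.47, Mki67 -0.030, Ccl5 0.15 and Il12b 0.18. Vcam1 was -0.049 and -0.15 with the replicate block (15 and 6 samples), -0.13 with voom, -0.052 with the muscle covariate, -0.015 with the length trend removed and -0.11 with both trend and block. Per2 was 0.26 with the block in 6 samples and 0.27 with voom. Without single samples the ranges were -0.25 to 1.26 (Col1a1), -0.10 to 1.26 (Col3a1), -0.53 to 5.68 (Tchh), -1.23 to 2.72 (Pmel), -0.58 to 1.12 (Mki67), -0.56 to 0.43 (Vcam1), -1.28 to 0.29 (Ccl5), -1.22 to 0.37 (Il12b), -0.22 to 1.42 (Cd68), -1.61 to 0.28 (Cd3e), -2.17 to 0.074 (Dbp) and -1.34 to 1.66 (Per2). The cause was not tested. With 3 samples a group and the spread at 15 mm, genes such as Nlrp12 at a few CPM rest on little depth.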

Other observations

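The acellular 10 mm replicate 1 differed from its group in clock output genes. Dbp, a transcription factor at the end of the clock, was at 83.0, 9.55 and 10.2 CPM in the 10 mm samples and 11.7, 4.38 and 15.0 CPM in the 15 mm samples, and Per2, a clock repressor, at 57.8, 3.43 and 5.85 CPM and 26.4, 9.16 and 8.55 CPM. Their log2 fold changes of -1.72 (SE 0.73) and -0.61 (SE 0.82) became 0.07 and 1.66 without that sample, whereas Per1 was -1.54 to -1.34 in all fits. The hour at which the skin was taken is not given in the sources used here.

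Among immediate-early genes the 10 mm replicate 3 was the highest for Fosb (31.6, 43.2 and 307 CPM at 10 mm and 2.10, 12.4 and 13.1 CPM at 15 mm), Atf3 (18.4, 58.9 and 255 and 8.79, 32.1 and 20.0 CPM) and Nr4a1 (21.1, 63.2 and 163 and 15.6, 36.1 and 20.4 CPM). Atf3 and Nr4a1 overlapped between the groups and Fosb did not. In normal skin Fosb was at 3.73 ± 0.794 CPM and Fos at 19.2 ± 6.39 CPM (SD, n = 3).

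Other gene lists held few members that separated the groups. The median of 9 mast cell genes was 1.07 (leave-one-out range 0.31 to 1.45) and of 7 lymphatic vessel genes 0.68 (0.28 to 1.29), both lowest without 15 mm replicate 3, with 0 and 1 members above without overlap, the latter being Lyve1, a hyaluronan receptor. Collagen-processing enzymes had a median of 0.54 (0.11 to 0.78, lowest without 15 mm replicate 3) and the TGF-beta and BMP list 0.14 (-0.01 to 0.27, lowest without 15 mm replicate 3). The Wnt list had a median of 0.33 (-0.02 to 0.39) and the Hedgehog and Notch list of 0.33 (-0.03 to 0.67), both lowest without 15 mm replicate 1. With the length trend removed the Hedgehog and Notch median was 0.18 and the TGF-beta and BMP median -0.03. Among their members the receptor genes Notch2 and Tgfbr1 were higher without overlap (0.42, SE 0.12, and 0.48, SE 0.12), at 0.13 and 0.33 with the length trend removed. The ligand genes Wnt7b and Bmp3 were lower (-0.83, SE 0.32, and -0.70, SE 0.30), at -0.50 and -0.39 without 15 mm replicate 1. Heat shock chaperones and hypoxia and glycolysis genes had medians of -0.01 (-0.18 to 0.18) and -0.20 (-0.35 to -0.10) with every member overlapping.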
